A study of Mus musculus with 24 samples.

Results

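Collagens are the secreted or membrane-bound matrix proteins built from α chains that wind into a shared helix. The family was taken as every protein-coding gene named Col, a type number, a and a chain number, and 44 of the 49315 genes in the deposited count tables met that rule. Of these, 11 encode fibrillar chains, 6 encode the type IV chains of basement membranes and 27 encode other types. The last group comprises 6 beaded-filament (type VI), 9 fibril-associated, 2 multiplexin, 4 short-chain or anchoring and 4 transmembrane chains, and 2 more that fall in no class. All 44 had reads in each of the 24 tumours and passed the filter on low counts.

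The series holds bulk RNA-seq of 24 mouse brain tumours in 8 groups of 3, 1 group for each of 4 infusions at each of 2 days. Every tumour grew from 200000 implanted cells of a mouse glioma line, CT-2A-dmEGFRvIII-Firefly Luciferase. This line, called CT-vIII, was transduced with a mouse form of the EGFRvIII receptor and with luciferase, and the cells went into the right hemisphere. From day 6 to day 9 after implantation a pump delivered its agent into the tumour over 72 h at 0.5 µl per h. The Vehicle (Control) pumps held albumin in saline with 100 µg of rat IgG2a. The other pumps held αCD40 (10 to 300 µg, an agonist antibody against the costimulatory receptor CD40, with no dose given for a single tumour), D2C7-IT (0.2 µg, an immunotoxin against EGFR and EGFRvIII), or D2C7-IT + αCD40. Day 0 tumours were taken when the pump came out and day 3 tumours 3 days later. Whole frozen tissue was used, so the reads come from tumour cells, vessels, immune cells and adjoining brain together. In such tissue fewer cells of a type and less RNA per cell cannot be told apart. The labels give each sample its own number and do not tie the replicates of a group to anything beyond separate samples. The p-values set differences between groups against the spread between these samples, pooled over all 8 groups.

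Fibrillar collagens form the rope-like fibrils of connective tissue. Type I joins the products of Col1a1 and Col1a2, type III is a homotrimer of the Col3a1 chain, and type V, from Col5a1 to Col5a3, sits inside those fibrils. Type IV collagen forms the sheet-like network of basement membranes, with the Col4a1 and Col4a2 chains in almost every vessel. Healthy brain parenchyma holds little fibrillar collagen: collagen is concentrated in the meninges, the choroid plexus and the sleeve of basement membrane around vessels. Type VI forms beaded filaments next to basement membranes, and type XVIII, from Col18a1, is a basement membrane proteoglycan whose end fragment is endostatin.

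Total counts ranged from 24.7 M to 48.1 M per tumour with a median of 37.8 M (M stands for 1000000 counts), and levels are given below as CPM (counts per M of a tumour) scaled with TMM factors. Unless stated otherwise, adjusted p-values are those of edgeR's quasi-likelihood test over 22280 genes, and a gene is called at an adjusted p under 0.05. 3 tumours stood apart. Vehicle day 3 replicates 2 and 3 had 283 and 343 CPM of Egfr, and αCD40 day 3 replicate 1 had 329 CPM, against 13.1 to 50.8 CPM in the other 21. Egfr reads here can come from the mouse's own gene and from the transduced receptor, both of mouse sequence. In the same 3 tumours 8 summed cell cycle markers stood at 1072 to 1376 CPM against 11.7 to 148, and 8 neuronal markers at 1683 to 3199 CPM against 4428 to 10369. All day 3 comparisons with vehicle or αCD40 include some of these tumours, so their fold changes and medians are given with and without them. The analysis without the 3 tumours leaves 1 vehicle tumour at day 3, whose spread is assumed to be like that of the other groups.

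The positions of the family on GRCm38 bear on how its reads are assigned only where genes overlap. Col3a1 (chr1:45311538-45349706, plus strand) and Col5a2 (chr1:45374321-45503282, minus strand) are neighbours that lie tail to tail and do not overlap. Both stood far higher in the 3 tumours of high Egfr than in the others, and a link of this to their position was not tested. 3 pairs of type IV genes lie head to head. Col4a1 (chr8:11198423-11312826, minus strand) and Col4a2 (chr8:11312805-11449287, plus strand) even overlap, and 22 bases are shared by their first exons. The stretch around both starts is shown because these chains form 1 molecule and are followed together below. Capitals mark the shared bases in chr8:11312801-11312830, plus strand, from the mouse RefSeq table of build GRCm38.p6.
Col4a2 and Col4a1 starts: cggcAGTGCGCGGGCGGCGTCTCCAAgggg
The bases before the start are shown for the member with the widest range and for the type I partner that did not follow it. For Col3a1 the region is chr1:45311288-45311537, plus strand, and for Col1a2 it is chr6:4505370-4505492, plus strand, ending inside the annotated gene since RefSeq places the start further along. Capitals mark TATAAA in Col3a1 and GGGCGG in Col1a2.
Col3a1 upstream: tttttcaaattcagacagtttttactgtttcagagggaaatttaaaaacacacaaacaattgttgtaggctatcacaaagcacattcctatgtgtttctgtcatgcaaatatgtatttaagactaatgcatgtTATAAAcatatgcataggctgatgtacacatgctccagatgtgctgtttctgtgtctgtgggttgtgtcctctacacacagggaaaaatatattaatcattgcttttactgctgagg
Col1a2 upstream: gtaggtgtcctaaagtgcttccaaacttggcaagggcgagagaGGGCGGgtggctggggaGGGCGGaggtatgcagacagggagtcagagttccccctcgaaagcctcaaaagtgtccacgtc
RefSeq promoters matched 35 of the 44 members. On either strand of the 250 bases before the start, TATAAA stood in 13.2% of the 38 member promoters and in 12.4% of all 32851. GGGCGG stood in 57.9% against 32.7%, and CCAAT in 34.2% against 33.8%. These matches describe letters only.

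Per length of exon, the family was led by the type VI gene Col6a1 and the type IV genes Col4a2 and Col4a1. Median levels over the 24 tumours, in CPM per kilobase of exon (RPKM), were 23.3 for Col6a1, 17.0 for Col4a2 and 14.1 for Col4a1. Col16a1, a fibril-associated collagen, followed at 7.48, Col9a3 at 5.00 and Col11a2, a minor fibrillar chain, at 4.94. Type I chains were moderate, at 4.49 RPKM for Col1a1 and 3.00 RPKM for Col1a2, and Col3a1 ranked 19 at 1.54 RPKM. Col25a1, a transmembrane collagen of neurons, ranked 8 at 4.42 RPKM. The lowest medians were those of Col4a4 (0.117 RPKM), Col10a1, the collagen of hypertrophic cartilage (0.0881 RPKM), and Col4a3 (0.0615 RPKM). The order depends on annotation, since 27 members are overlapped by another annotated gene, 17 of them on the other strand, and the library kit did not mark strand. It also depends on the length of all annotated exons, by which levels are divided. That length is 12426 bases for Col1a2 and 6563 for Col1a1, and 8326 for Col6a2 and 4380 for Col6a1. Ratios between partner chains take in the same lengths.

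Of the 5 chains of types I, III and IV followed in every tumour, Col3a1 varied most. Col3a1 stood at 119, 13.3 and 5.20 CPM in vehicle, 9.79, 8.21 and 118 CPM in αCD40, 16.8, 9.39 and 21.6 CPM in D2C7-IT and 5.67, 10.8 and 9.66 CPM in D2C7-IT + αCD40 tumours at day 0. At day 3 it stood at 8.81, 1852 and 1739.6 CPM in vehicle, 1514, 17.9 and 20.6 CPM in αCD40, 21.8, 13.3 and 6.87 CPM in D2C7-IT and 21.3, 24.9 and 10.7 CPM in D2C7-IT + αCD40 tumours. The 3 highest values are those of the 3 tumours of high Egfr, and the next 2, 119 and 118 CPM, are day 0 tumours.
Col1a1 at day 0 was 31.0, 24.9 and 31.6 CPM in vehicle, 31.7, 20.03 and 17.2 in αCD40, 28.8, 15.95 and 50.8 in D2C7-IT and 16.7, 19.6 and 16.8 in D2C7-IT + αCD40 tumours. At day 3 it was 24.1, 211 and 225 CPM in vehicle, 141, 29.4 and 54.5 in αCD40, 34.6, 38.1 and 22.3 in D2C7-IT and 39.1, 29.6 and 19.6 in D2C7-IT + αCD40 tumours. The same 3 tumours were highest, and at day 0 the D2C7-IT + αCD40 tumours all lay below the vehicle tumours.
Col1a2, the partner chain of Col1a1, did not share that range. At day 0 it was 36.7, 40.7 and 46.0 CPM in vehicle, 45.7, 28.0 and 37.8 in αCD40, 38.9, 25.4 and 60.1 in D2C7-IT and 20.6, 30.3 and 36.4 in D2C7-IT + αCD40 tumours. At day 3 it was 26.4, 38.3 and 30.7 CPM in vehicle, 26.5, 42.1 and 79.6 in αCD40, 44.5, 42.0 and 31.8 in D2C7-IT and 48.4, 36.5 and 25.8 in D2C7-IT + αCD40 tumours. The highest value was αCD40 day 3 replicate 3, and the 3 tumours of high Egfr lay within the range of the rest.
Col4a1 at day 0 was 99.2, 54.7 and 63.2 CPM in vehicle, 115, 104 and 126 in αCD40, 99.2, 119.9 and 96.7 in D2C7-IT and 122, 126 and 98.4 in D2C7-IT + αCD40 tumours. At day 3 it was 68.7, 469 and 445 CPM in vehicle, 423, 76.1 and 80.5 in αCD40, 133, 107 and 70.0 in D2C7-IT and 128, 134 and 101 in D2C7-IT + αCD40 tumours. Vehicle replicates 2 and 3 were the lowest of day 0.
Col4a2 at day 0 was 109, 90.8 and 98.1 CPM in vehicle, 133, 115 and 102 in αCD40, 110.4, 104 and 97.7 in D2C7-IT and 129.5, 114 and 119 in D2C7-IT + αCD40 tumours. At day 3 it was 94.9, 284 and 276 CPM in vehicle, 263, 87.0 and 114 in αCD40, 133, 108 and 87.2 in D2C7-IT and 137, 122 and 103 in D2C7-IT + αCD40 tumours. At day 0 the D2C7-IT + αCD40 tumours lay above all vehicle tumours, and the other groups overlapped.

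**Figure D1:**
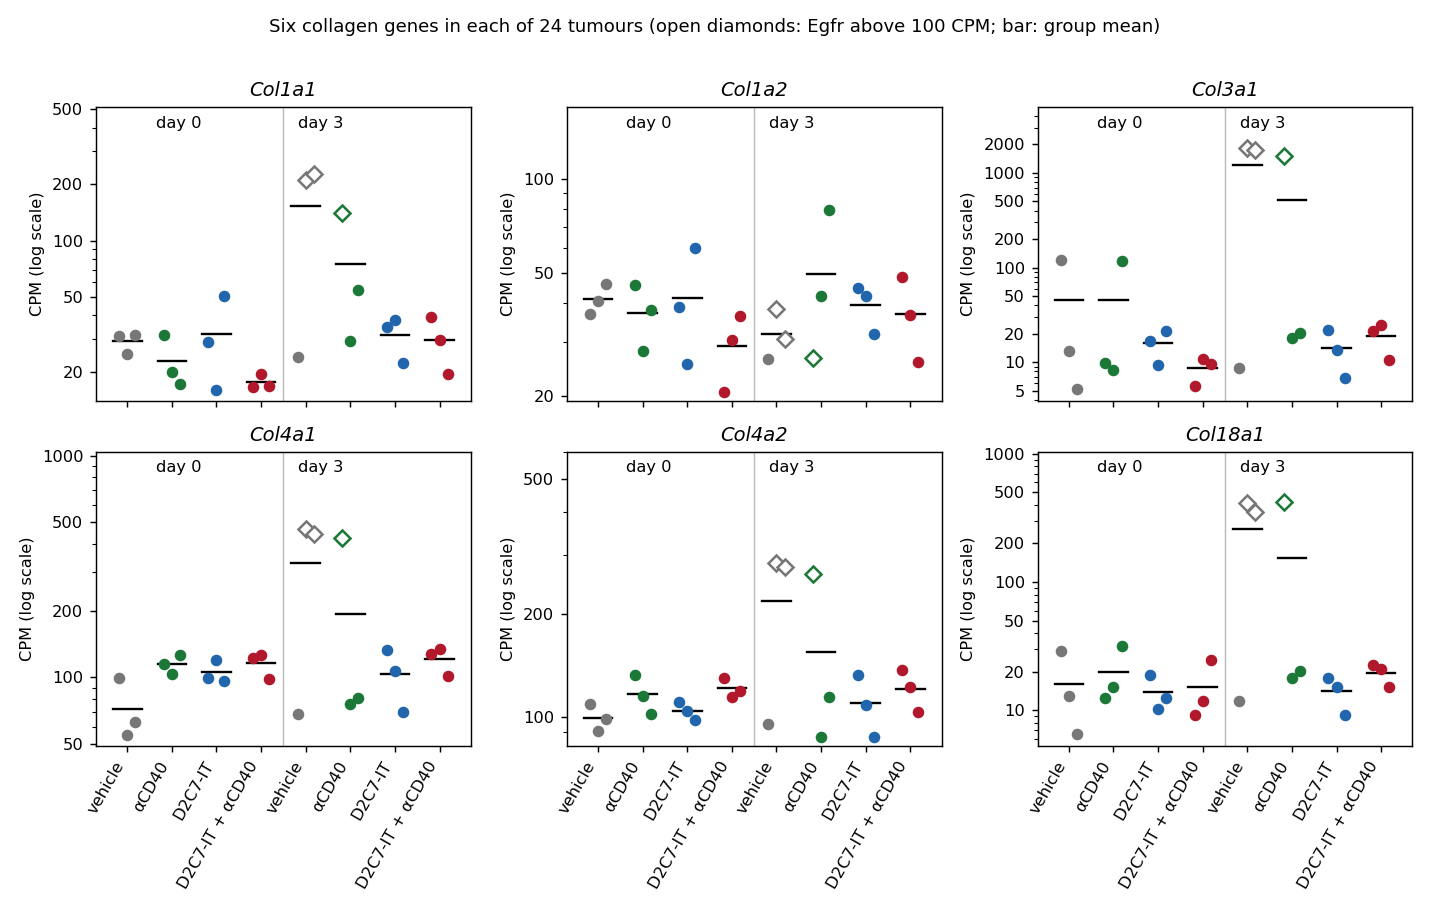
CPM (log axis) of Col1a1, Col1a2, Col3a1, Col4a1, Col4a2 and Col18a1 in each tumour by group; bars are group means of 3 tumours and open diamonds are the 3 tumours of Egfr above 100 CPM. The diamonds lie above all other points in every panel but that of Col1a2, and the Col18a1 diamonds lie at 353 to 423 CPM.

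In the 3 tumours of high Egfr, 17 of the 44 collagens lay above all other 21 tumours and 4 lay below. Among all genes tested 26.1% lay above and 18.9% below. The 17 included 7 of 11 fibrillar, 3 of 6 type IV and 7 of 27 other chains, and the 4 below were Col4a3, Col22a1, Col25a1 and Col26a1. These are descriptions of 3 tumours, not of a treatment group.
Col3a1 and Col1a1 are given above. Of the other fibrillar chains, Col5a1 was 459 to 572 CPM in the 3 tumours and 11.4 to 89.2 CPM in the rest, and Col5a2 was 129 to 152 against 4.67 to 19.8. Col27a1, a fibrillar chain of cartilage, was 85.0 to 101 CPM against 9.30 to 66.4, Col11a1 was 58.2 to 77.9 against 7.89 to 50.9, and Col5a3 was 33.3 to 45.6 against 6.12 to 29.6. Fibrillar chains together made up 43.8 to 46.3% of collagen RPKM in the 3 tumours and 14.9 to 26.5% in the rest.
Of the network and filament chains, Col4a5 was 49.6 to 58.9 CPM in the 3 tumours against 3.23 to 14.9 CPM elsewhere. The type VI genes Col6a1 (379.7 to 457 against 54.4 to 232 CPM), Col6a2 (262 to 352 against 18.1 to 45.8 CPM) and Col6a3 (106 to 123 against 2.20 to 26.2 CPM) were all higher. So were Col18a1 (353 to 423 against 6.52 to 31.95 CPM), Col7a1 of anchoring fibrils (84.3 to 88.3 against 6.35 to 17.8 CPM) and Col8a1, a short-chain collagen of vessel walls (72.8 to 86.4 against 2.08 to 15.97 CPM). Col20a1 was 21.4 to 25.7 CPM against 5.50 to 18.7.
Lower in the 3 tumours was the neuronal Col25a1, at 9.47 to 17.5 CPM against 20.8 to 103 CPM, beside the lower neuronal markers given above. Col26a1 was 0.965 to 2.90 CPM against 5.15 to 12.8, Col22a1 0.823 to 1.28 against 1.52 to 7.61, and Col4a3 0.142 to 0.283 against 0.3797 to 3.26.

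Summed markers of endothelial, mural, and fibroblast and meningeal cells overlapped between the 3 tumours and the rest or nearly met. Single markers did not all do so. Summed endothelial markers were 271 to 279 CPM in the 3 tumours and 230 to 396 in the rest, mural markers 236 to 262 against 175 to 264, and fibroblast and meningeal markers 279 to 333 against 134 to 279. Single markers lay above all other tumours for 8 of 8 cell cycle and 4 of 10 fibroblast and meningeal genes. The same held for 2 of 10 mural and 1 of 10 endothelial genes. Below all others lay 7 of 8 neuronal, 1 of 10 mural and 1 of 10 endothelial markers. Among those above, the mural Pdgfrb was 68.2 to 74.2 CPM against 24.4 to 34.9. The fibroblast marker Pdgfra was 128 to 136 CPM against 38.7 to 81.8. The part of cell makeup, Egfr level or cell cycle in the collagen values was not tested.
Genes that act on collagen were counted the same way, against the 26.1% above and 18.9% below of all genes. Of 22 genes of collagen modification and folding 16 lay above the other tumours and 2 below: Serpinh1, the collagen chaperone HSP47, was 547 to 607 CPM against 22.6 to 69.5 CPM, and Plod2, which hydroxylates telopeptide lysines, was 137 to 144 CPM against 4.40 to 25.4 CPM. Of 12 fibrillar matrix partners 8 lay above, with the proteoglycan Bgn at 677 to 841 CPM against 16.04 to 68.4. Of 12 basement membrane partners 8 lay above and 2 below, with the perlecan gene Hspg2 at 571 to 627 CPM against 18.4 to 63.6 and the laminin chain gene Lama5 below, at 9.68 to 10.6 CPM against 17.7 to 42.7. In the remaining lists 6 of 14 processing and crosslinking genes, 5 of 10 receptors, 4 of 11 degradation genes and 6 of 12 TGF-beta genes lay above, and 1, 1, 0 and 0 below.

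**Figure D2:**
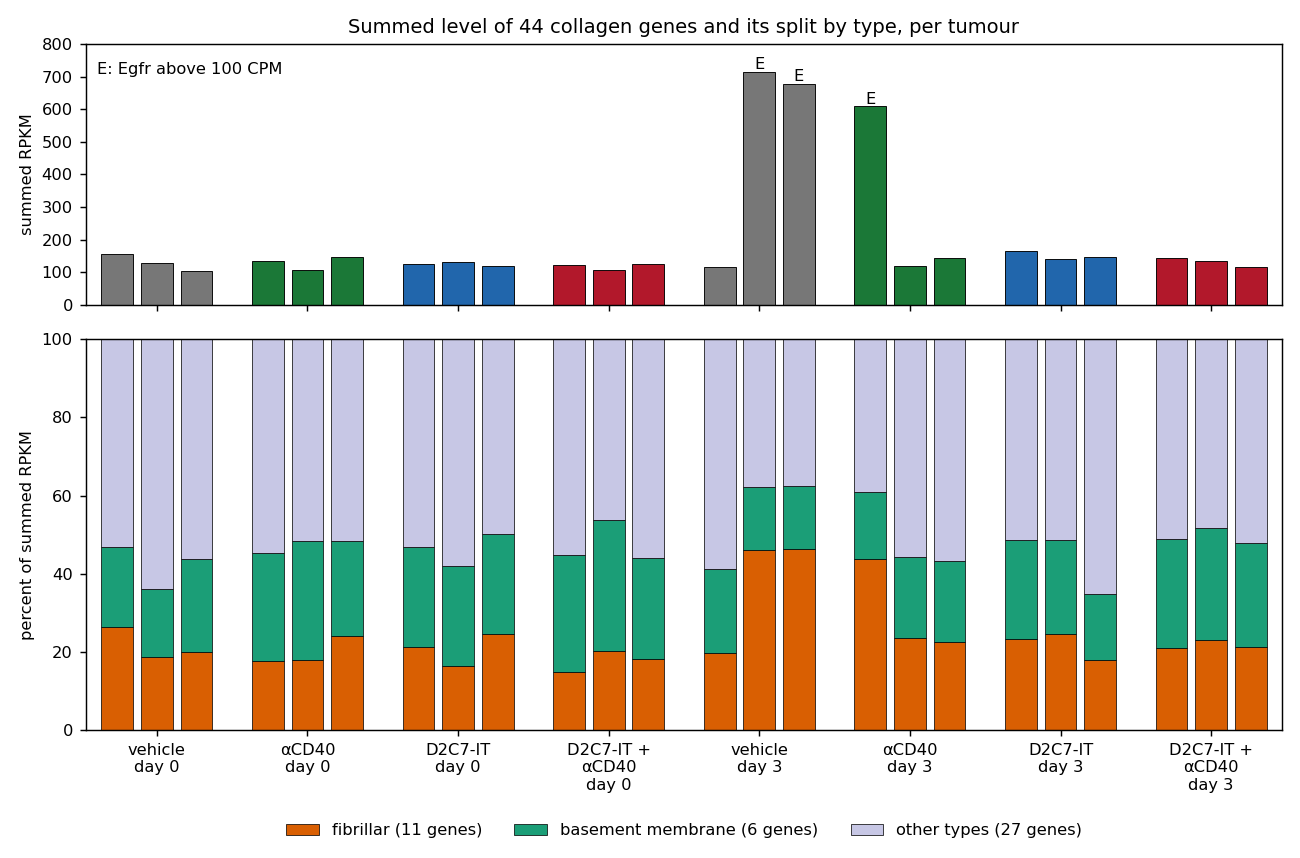
Summed collagen RPKM in each of the 24 tumours (top) and the percent of it from fibrillar, basement membrane and other chains (bottom), by group and day. The 3 tumours of high Egfr reach 609 to 715 RPKM against 104 to 164 RPKM in the rest, with fibrillar shares of 43.8 to 46.3%.

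At day 0, when the pump came out, the question was whether each infusion changed the family against vehicle. These 3 comparisons share the vehicle tumours. No collagen was called in any of them. Type IV chains took a larger share of collagen RPKM in every tumour given αCD40, D2C7-IT or both than in any vehicle tumour. Shares were 17.2 to 23.8% in vehicle, 24.2 to 30.6% in αCD40, 25.4 to 25.6% in D2C7-IT and 25.9 to 33.4% in D2C7-IT + αCD40 tumours. The type IV sum itself overlapped between vehicle and D2C7-IT tumours. It was 22.2 to 31.7 RPKM in vehicle, 32.5 to 36.8 in αCD40, 30.2 to 33.3 in D2C7-IT and 32.6 to 36.6 in D2C7-IT + αCD40 tumours. Mean total collagen RPKM was near equal, at 129 ± 25.4, 129 ± 21.2, 124 ± 5.52 and 118 ± 10.7 (SD, n = 3 each). Vehicle replicate 1 had the highest total of day 0, at 155 RPKM. All 12 day 0 tumours had Egfr under 100 CPM.
For αCD40 against vehicle edgeR called 0% of all genes and 0 collagens, and DESeq2 called 0 collagens. Of the 44 members, 1 was higher and 0 lower at an unadjusted p under 0.05, against 0.929% and 0.431% of all genes. The median log2 fold change was 0.09 over all members (0.00 over all genes), −0.03 over fibrillar, 0.59 over type IV and 0.08 over other chains. Col4a1 averaged 115 ± 11.3 CPM (SD, n = 3) in αCD40 and 72.4 ± 23.6 CPM in vehicle tumours, a log2 fold change of 0.67 ± 0.58 (SE; adjusted p = 1). The αCD40 tumours all lay above the vehicle tumours. Without αCD40 day 0 replicate 3 the type IV median was −0.12. In the analysis without the 3 tumours of high Egfr, which takes out their share of the pooled spread, the Col4a1 value was 0.67 ± 0.22 (unadjusted p = 0.0085, adjusted p = 1).
Col6a6, a type VI chain at the edge of detection, was the member of smallest p, at 1.69 ± 0.668 CPM against 0.695 ± 0.316 CPM (log2 fold change 1.25 ± 0.58, adjusted p = 1).
For D2C7-IT against vehicle edgeR called 0.0808% of all genes and none of the 44. Unadjusted, 1 member was higher and 1 lower, against 3.61% and 0.911% of all genes. The median was 0.10 over all members (−0.01 over all genes), 0.03 over fibrillar, 0.45 over type IV and 0.05 over other chains. Without D2C7-IT day 0 replicate 3 the type IV median was 0.14. Col6a6 averaged 2.01 ± 0.648 against 0.695 ± 0.316 CPM (1.51 ± 0.58, adjusted p = 0.88). Col16a1 averaged 53.1 ± 11.9 against 37.8 ± 5.57 CPM (0.49 ± 0.28, adjusted p = 1), and Col5a2 averaged 18.3 ± 1.54 against 8.82 ± 5.16 CPM (1.05 ± 0.87, adjusted p = 1). The Col6a6, Col16a1 and Col5a2 tumours of the 2 groups did not overlap. For groups of 3 tumours the share of all genes without overlap was not counted, here or elsewhere. A lack of overlap therefore does not set a member apart from other genes.
For D2C7-IT + αCD40 against vehicle edgeR called 0% of all genes and 0 collagens. Unadjusted, 0 members were higher and 1 lower, against 1.86% and 1.17%. The median was −0.00 over all members (0.02 over all genes), −0.13 over fibrillar, 0.32 over type IV and 0.01 over other chains. The lower member was Col4a6, a type IV chain of smooth muscle and epithelial basement membranes: 0.488, 1.10 and 2.01 CPM against 2.98, 2.36 and 3.04 CPM (log2 fold change −1.21 ± 0.41, adjusted p = 1). Col1a1 averaged 17.7 ± 1.64 against 29.1 ± 3.67 CPM (−0.72 ± 0.62, unadjusted p = 0.26), with no overlap between the groups. DESeq2 called no member in either comparison.

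Endothelial markers moved beside the type IV share. Their summed level at day 0 was 230 to 277 CPM in vehicle, 321 to 396 in αCD40, 295 to 335 in D2C7-IT and 327 to 368 in D2C7-IT + αCD40 tumours. Of the 10 markers 6, 7 and 7 were higher at an unadjusted p under 0.05 in the 3 comparisons, and edgeR called none. Among all genes 0.929%, 3.61% and 1.86% were higher at that p. The 3 counts rest on the same vehicle tumours, so they are not independent. Pecam1, an endothelial adhesion molecule, was 24.9, 21.5 and 22.4 CPM in vehicle and 45.0, 47.4 and 37.1 CPM in αCD40 tumours (log2 fold change 0.91 ± 0.15, adjusted p = 0.063). It was 35.2, 35.7 and 39.7 CPM in D2C7-IT tumours (adjusted p = 0.11) and 34.1, 43.9 and 42.2 CPM in D2C7-IT + αCD40 tumours (adjusted p = 0.26). DESeq2 called Pecam1 in all 3 comparisons, at adjusted p-values of 2.9e-05, 0.0049 and 0.00069. edgeR called it in αCD40 tumours without αCD40 day 0 replicate 3 (adjusted p = 0.036). Leaving out any other tumour of these groups gave no call (adjusted p 0.14 to 0.74). Nor did edgeR without the filter (0.23), with the replicate block (0.10) or with only the groups compared (0.9998). For the fit without the 3 tumours of high Egfr only the log2 fold change, 0.92, is given here. That fit is not counted among the settings without a call. In D2C7-IT and in D2C7-IT + αCD40 tumours edgeR called Pecam1 in none of these settings. The part of endothelial content in the type IV values was not tested.

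Of the genes that make, process or degrade collagen, 2 were called at day 0, both in D2C7-IT against vehicle. Creb3l1, a transcription factor known to drive Col1a1 in bone, rose from 3.52, 3.44 and 2.38 CPM to 17.1, 21.4 and 12.7 CPM (log2 fold change 2.45 ± 0.43, adjusted p = 0.039). The call was lost with any 1 of these 6 tumours left out (adjusted p 0.053 to 0.38, log2 fold change 2.27 to 2.62). Col1a1 itself averaged 31.9 ± 17.6 CPM there and 29.1 ± 3.67 CPM in vehicle tumours. Mmp3, a matrix metalloproteinase that cleaves type IV collagen and activates other collagenases, rose from 0.0709, 0 and 0 CPM to 7.21, 9.82 and 3.19 CPM (adjusted p = 0.011). That call was lost with any 1 vehicle tumour left out (adjusted p 0.057 to 0.18). No fold is given for Mmp3 because the vehicle tumours held almost no reads.
By list, 1 of 22 modification and folding genes (Creb3l1) and 1 of 11 degradation genes (Mmp3) were called in that comparison, and none of 14 processing, 9 tested receptor, 12 fibrillar partner, 12 basement membrane partner or 12 TGF-beta genes. Among all genes 0.0808% were called. Timp1, an inhibitor of the metalloproteinases, averaged 52.1 ± 5.85 against 3.43 ± 2.75 CPM (3.91 ± 1.08, adjusted p = 0.36, and 0.0074 with DESeq2). Neutrophil markers were higher in the same tumours, with 3 of 5 tested called, and the part of neutrophils in the Mmp3 value was not tested. Apart from Csf3r these markers were low, at 2.94 CPM or less in each of the 21 tumours of Egfr under 100 CPM. In αCD40 and in D2C7-IT + αCD40 tumours edgeR called none of these genes. There 2 and 1 of 11 degradation genes were higher at an unadjusted p under 0.05, and erythroid markers were lower for 5 of 5. Among all genes 0.929% and 1.86% were higher and 0.431% and 1.17% lower at that p.

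At day 3 the comparisons with vehicle measured the family 3 days after infusion, and each rests on a vehicle group in which 2 of 3 tumours had high Egfr. Summed collagen RPKM was 503 ± 337 in vehicle, 291 ± 276 in αCD40, 149 ± 12.9 in D2C7-IT and 131 ± 13.4 in D2C7-IT + αCD40 tumours (SD, n = 3 each). Type IV shares were 16.1 to 21.6%, 17.1 to 20.8%, 16.9 to 25.1% and 26.8 to 28.7%. No collagen was called with edgeR in any of the 3 comparisons.
For αCD40 against vehicle edgeR called 0% of all genes and DESeq2 called no collagen. Unadjusted, 0 members were higher and 0 lower, against 1.52% and 0.386% of all genes. Medians were −0.24 over the family, −0.57 over fibrillar, −0.37 over type IV and 0.27 over other chains, against 0.02 over all genes. Without the 3 tumours of high Egfr they were 0.28, 0.28, 0.29 and 0.28. Without αCD40 day 3 replicate 1 alone 8 members were called, against 5.98% of all genes. Members of smallest p were Col28a1 (1.00 ± 0.106 against 1.87 ± 0.996 CPM, −0.90 ± 0.46, and 0.50 without the 3 tumours), Col1a2 (49.4 ± 27.3 against 31.8 ± 6.03 CPM, 0.63 ± 0.36, and 1.23 without the 3) and Col14a1, a fibril-associated chain (2.89 ± 0.677 against 2.04 ± 0.348 CPM, 0.50 ± 0.29, and 0.41 without the 3). All had an adjusted p of 1.
For D2C7-IT against vehicle edgeR called 0% of all genes. Unadjusted, 1 member was higher and 13 lower, against 9.96% and 18.3%. DESeq2 called 10 members, 1 higher and 9 lower, against 12.9% of all genes. Medians were −0.30 over the family (0.02 over all genes), −0.97 over fibrillar, −0.14 over type IV and −0.21 over other chains, and without the 3 tumours 0.34, 0.59, 1.00 and 0.17. Without vehicle day 3 replicate 1 edgeR called 16 members, against 35.7% of all genes.
Col6a2 averaged 29.1 ± 3.01 CPM in D2C7-IT and 236 ± 182 CPM in vehicle tumours, a log2 fold change of −3.02 ± 0.77 (adjusted p = 0.080), and 0.17 ± 0.36 without the 3 tumours. Col18a1 averaged 14.1 ± 4.46 against 261 ± 218 CPM (−4.21 ± 1.16, adjusted p = 0.080, and 0.27 without the 3). Col1a1 averaged 31.7 ± 8.30 against 153 ± 112 CPM (−2.28 ± 0.64, adjusted p = 0.080, and 0.41 without the 3). Col3a1 had −6.42 ± 1.92 (adjusted p = 0.080) with all tumours and 0.68 ± 1.48 without the 3. Each of these groups overlapped through vehicle replicate 1. Col22a1, a fibril-associated chain of tissue junctions, was the higher member, at 6.05 ± 1.36 against 2.07 ± 1.67 CPM (1.55 ± 0.57, adjusted p = 0.10, and 0.61 without the 3).
For D2C7-IT + αCD40 against vehicle edgeR called 0.0404% of all genes and no collagen. Unadjusted, 3 members were higher and 14 lower, against 7.09% and 16.9%. DESeq2 called 11 members, 1 higher and 10 lower, against 7.72%. Medians were 0.02 over the family (0.01 over all genes), −0.95 over fibrillar, −0.41 over type IV and 0.10 over other chains, and without the 3 tumours 0.44, 0.51, 0.73 and 0.14. Without vehicle day 3 replicate 1 edgeR called 20 members, against 30.1%.
Col6a2 averaged 23.7 ± 5.49 against 236 ± 182 CPM (−3.31 ± 0.78, adjusted p = 0.10, and −0.11 without the 3). Col6a1 was 75.9, 78.5 and 57.8 CPM against 108, 457 and 431 CPM in vehicle tumours, with no overlap (−2.23 ± 0.59, adjusted p = 0.11), and −0.58 ± 0.58 without the 3. Col1a1 had −2.38 ± 0.64 and Col3a1 −5.98 ± 1.88, both at an adjusted p of 0.11, and 0.32 and 1.13 without the 3. Col6a6 was among the higher members, at 2.15 ± 0.710 against 0.667 ± 0.413 CPM (1.69 ± 0.59, adjusted p = 0.12, and 0.94 without the 3).

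**Figure D3:**
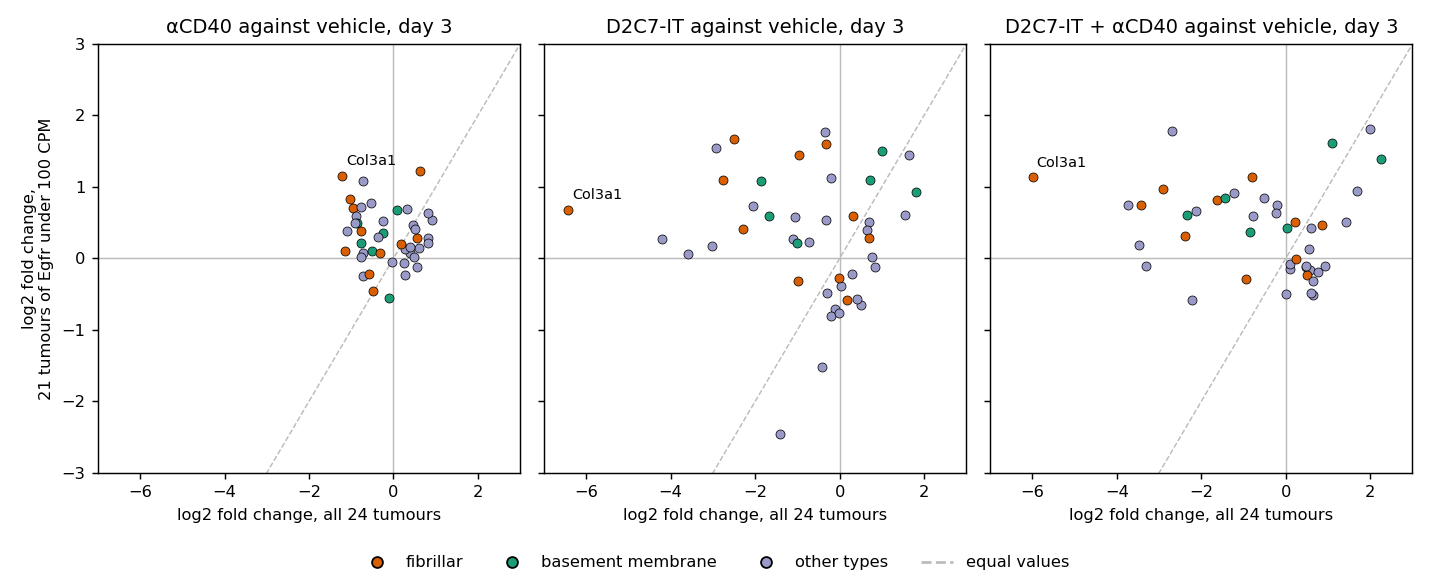
Log2 fold change of each of the 44 collagens against vehicle at day 3, with all 24 tumours (horizontal) and without the 3 of high Egfr (vertical), by collagen class. Col3a1 in D2C7-IT tumours goes from −6.42 to 0.68, so points at the far left do not keep their size.

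Genes that act on collagen were counted in the same day 3 comparisons. In D2C7-IT against vehicle, 2 modification and folding genes were higher and 11 of 22 lower at an unadjusted p under 0.05. The counts were 1 and 4 of 14 for processing and crosslinking, 1 and 3 of 9 for receptors, 2 and 4 of 11 for degradation, 1 and 8 of 12 for fibrillar partners, 1 and 5 of 12 for basement membrane partners and 2 and 4 of 12 for TGF-beta signalling. Among all genes 9.96% were higher and 18.3% lower. edgeR called none. Examples are Bgn (log2 fold change −4.69, and 0.09 without the 3 tumours), Hspg2 (−3.93, and 0.26), Pcolce, an enhancer of procollagen cleavage (−3.29, and 0.50), Fkbp10, a collagen prolyl isomerase (−3.06, and 0.44) and Crtap, of the prolyl hydroxylase complex (−2.61, and −0.05). Lama5 was at 1.45 ± 0.31 (adjusted p = 0.080), at 0.91 without the 3 tumours, and called without D2C7-IT day 3 replicate 3 (adjusted p = 0.021). DESeq2 called Lama5, Bgn, Hspg2, Pcolce and Crtap and gave no adjusted p for Fkbp10, against 12.9% of all genes called. Without vehicle day 3 replicate 1 edgeR called all 6, against 35.7% of all genes. The 6 were named for their small p in this same comparison, so these calls are no separate evidence. In D2C7-IT + αCD40 against vehicle 12 of 22 modification and folding genes and 7 of 12 fibrillar partners were lower, and 0 and 1 were higher, against 16.9% and 7.09% of all genes. In the 3 tumours of high Egfr, Bgn, Hspg2, Pcolce, Fkbp10 and Crtap lay above and Lama5 below all other 21.

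D2C7-IT + αCD40 was also compared with each agent alone. At day 0 against αCD40 edgeR called 0% of all genes. Unadjusted, 0 members were higher and 1 lower, against 0.516% and 0.368%. The lower member was Col4a6, at 0.488, 1.10 and 2.01 CPM against 3.49, 2.40 and 5.99 CPM (−1.72 ± 0.41, unadjusted p = 0.00055, adjusted p = 1). Leaving out 1 tumour at a time kept that value between −2.32 and −1.29. DESeq2 called it, at an adjusted p of 0.047, with 0.0314% of all genes called. Medians were −0.13 over the family (0.02 over all genes), −0.02 over fibrillar, −0.36 over type IV and −0.13 over other chains.
Against D2C7-IT at day 0 edgeR again called 0% of all genes. Unadjusted, 1 member was higher and 1 lower, against 1.17% and 1.6%. Col4a6 was 3.66, 3.18 and 4.75 CPM in D2C7-IT tumours (−1.68 ± 0.41, adjusted p = 1.0), and DESeq2 called it at an adjusted p of 0.032, with 0.0943% of all genes called. In all 3 D2C7-IT + αCD40 tumours of day 0 this gene lay below every tumour of the other day 0 groups. These values share the D2C7-IT + αCD40 tumours, so they are not independent. They rest on few reads, 18, 38 and 93 counts in the 3 tumours. Medians were −0.11 over the family (0.02 over all genes), −0.22 over fibrillar, −0.15 over type IV and −0.08 over other chains.
At day 3 against αCD40 edgeR called 0%. Unadjusted, 2 members were higher and 8 lower, against 3.66% and 7.42%. Col6a2 averaged 23.7 ± 5.49 against 109.5 ± 132 CPM (−2.21 ± 0.74, adjusted p = 0.37, and −0.49 without the 3 tumours) and Col18a1 19.5 ± 3.83 against 154 ± 233 CPM (−2.98 ± 1.10, adjusted p = 0.41, and 0.03 without the 3). Col3a1 had −4.77 ± 1.77 (adjusted p = 0.41), was called by DESeq2 alone (adjusted p = 0.041, with 0.992% of all genes called), and stood at −0.02 without the 3 tumours. Medians went from −0.14 over the family (−0.04 over all genes) and −0.48 over fibrillar chains to 0.06 and −0.02 without the 3.
At day 3 against D2C7-IT edgeR called 0%, and DESeq2 called no member. Unadjusted, 1 member was higher and 0 lower, against 1.44% and 1.01%. Neither group holds a tumour of high Egfr. Col6a6 was 2.89, 1.48 and 2.08 CPM against 0.739, 0.302 and 0.926 CPM (1.70 ± 0.59, unadjusted p = 0.0095, adjusted p = 1). Col6a1 averaged 70.7 ± 11.3 against 159.8 ± 68.0 CPM (−1.18 ± 0.57, unadjusted p = 0.055). In both genes the groups did not overlap. The family median was 0.10 (−0.01 over all genes).

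Within each infusion, day 3 was set against day 0. In vehicle tumours edgeR called 0% of all genes. Unadjusted, 19 members were higher and 0 lower, against 22% and 8.15%, and DESeq2 called 14 members, against 11% of all genes. Medians were 0.22 over the family (0.01 over all genes), 1.66 over fibrillar, 0.65 over type IV and −0.17 over other chains. Without the 3 tumours they were −0.15, −0.26, −0.15 and −0.14. Without vehicle day 3 replicate 1 edgeR called 23 members, against 41.1%. Col1a1 averaged 153 ± 112 at day 3 and 29.1 ± 3.67 CPM at day 0 (2.40 ± 0.64, adjusted p = 0.11, and −0.29 without the 3). Col16a1 averaged 78.9 ± 30.6 against 37.8 ± 5.57 CPM (1.06 ± 0.28, adjusted p = 0.11, and 0.20 without the 3), with no overlap between days. Col6a2 had 2.79 ± 0.76 (adjusted p = 0.11, and −0.40 without the 3).
In αCD40 tumours edgeR called 0.0583% of all genes and no collagen, and DESeq2 called no collagen. Unadjusted, 9 members were higher and 0 lower, against 9.52% and 2.1%. The fibrillar median was 1.15, and 0.21 without the 3 tumours. Col1a1 averaged 74.9 ± 58.4 against 22.96 ± 7.67 CPM (1.71 ± 0.63, adjusted p = 0.42, and 0.88 without the 3). The family median was 0.42 (0.05 over all genes), and 0.12 without the 3.
In D2C7-IT tumours edgeR called 0.00449% of all genes and no collagen, as did DESeq2. Unadjusted, 0 members were higher and 1 lower, against 2.45% and 1.06%. Col6a6 averaged 0.656 ± 0.320 against 2.01 ± 0.648 CPM (−1.60 ± 0.58, unadjusted p = 0.014, adjusted p = 1). The groups did not overlap. The family median was 0.15 (0.01 over all genes) and Col27a1 averaged 34.0 ± 28.0 against 14.5 ± 0.384 CPM (1.23 ± 0.73, adjusted p = 1).
In D2C7-IT + αCD40 tumours edgeR called 0% and DESeq2 called no member. Unadjusted, 1 member was higher and 0 lower, against 3.15% and 1.51%. The log2 fold change was above 0 for 36 of 44 members and for 11 of 11 fibrillar chains, with medians of 0.40 over the family (−0.01 over all genes), 0.42 over fibrillar, 0.80 over type IV and 0.28 over other chains. Col4a6 averaged 3.20 ± 0.423 at day 3 and 1.20 ± 0.766 CPM at day 0 (1.41 ± 0.41, unadjusted p = 0.0028, adjusted p = 0.52). Col16a1 averaged 67.0 ± 3.78 against 45.0 ± 8.27 CPM (0.57 ± 0.28, adjusted p = 1). Neither day holds a tumour of high Egfr.

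Whether an infusion's difference from vehicle itself differed between days was tested as an interaction. For αCD40 edgeR called 0% of all genes. Unadjusted, 0 members were higher and 0 lower, against 0.682% and 0.539%, with a family median of −0.39 (0.00 over all genes), which turned to 0.23 without the 3 tumours. For D2C7-IT edgeR called 0%. Unadjusted, 0 members were higher and 8 lower, against 5.38% and 12.2%. Col5a2 had −3.82 ± 1.26 (adjusted p = 0.28, and 0.05 without the 3 tumours), and without vehicle day 3 replicate 1 edgeR called 9 members, against 16.1%. For D2C7-IT + αCD40 edgeR called 0%. Unadjusted, 1 member was higher and 6 lower, against 2.21% and 5.84%, and Col6a2 had −2.74 ± 1.03 (adjusted p = 0.55, and 0.47 without the 3). DESeq2 called no member in the 3 interactions.

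Chains that build 1 molecule were compared over the 21 tumours of Egfr under 100 CPM, on log2(CPM + 0.5), with 100000 permutations and p-values adjusted over 8 pairs. These tumours mix 8 groups, so each value was also taken after centring on the group means. Col1a1 and Col1a2 had Pearson's r = 0.86 (adjusted p = 8e-05, from the smallest p the permutations can give) and Spearman's rho = 0.87. Without the 2 tumours farthest from the median r was 0.80, and r was 0.85 after centring. Col4a1 and Col4a2 had r = 0.75 (adjusted p = 0.00044), rho = 0.74, r = 0.72 without 2 tumours and r = 0.64 after centring (adjusted p = 0.0076). Col6a1 and Col6a2 had r = 0.52 (adjusted p = 0.035) and rho = 0.54, r = 0.60 without 2 tumours, and r = 0.40 after centring (adjusted p = 0.12).
The type V partners Col5a1 and Col5a2 did not pass the threshold, with r = 0.28 (adjusted p = 0.28), rho = 0.19 and r = 0.44 after centring (adjusted p = 0.093). Across types, Col1a1 and Col3a1 had r = 0.23 (adjusted p = 0.33), rho = 0.46 and r = 0.13 after centring (adjusted p = 0.66). Col1a1 had r = 0.42 with the fibroblast proteoglycan Dcn (adjusted p = 0.099), rho = 0.34 and r = 0.27 without 2 tumours, and r = 0.51 after centring (adjusted p = 0.048). With the mural receptor Pdgfrb it had r = 0.26 (adjusted p = 0.28) and r = 0.03 after centring. Col4a1 had r = 0.68 with the endothelial Pecam1 (adjusted p = 0.0024) and rho = 0.48. Without vehicle day 0 replicates 2 and 3, the tumours farthest from the median of Col4a1, that r was 0.50 (adjusted p = 0.056), and after centring it was 0.31 (adjusted p = 0.22), so it rests on those tumours and on the groups.
Of 4 partner ratios per length, 3 did not overlap between the 3 tumours of high Egfr and the rest. Col1a1 to Col1a2 was 10.0 to 13.9 in them and 0.86 to 1.72 in the rest. Col4a1 to Col4a2 was 1.43 to 1.46 against 0.53 to 1.10. Col6a1 to Col6a2 was 2.47 to 2.76 against 4.56 to 17.2. Col5a1 to Col5a2 was 4.02 to 4.47 in the 3 tumours, inside the 1.06 to 9.02 of the rest. Col1a2 is the one chain of type I whose level in those tumours lay within the range of the rest, at 26.5 to 38.3 CPM.

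**Figure D4:**
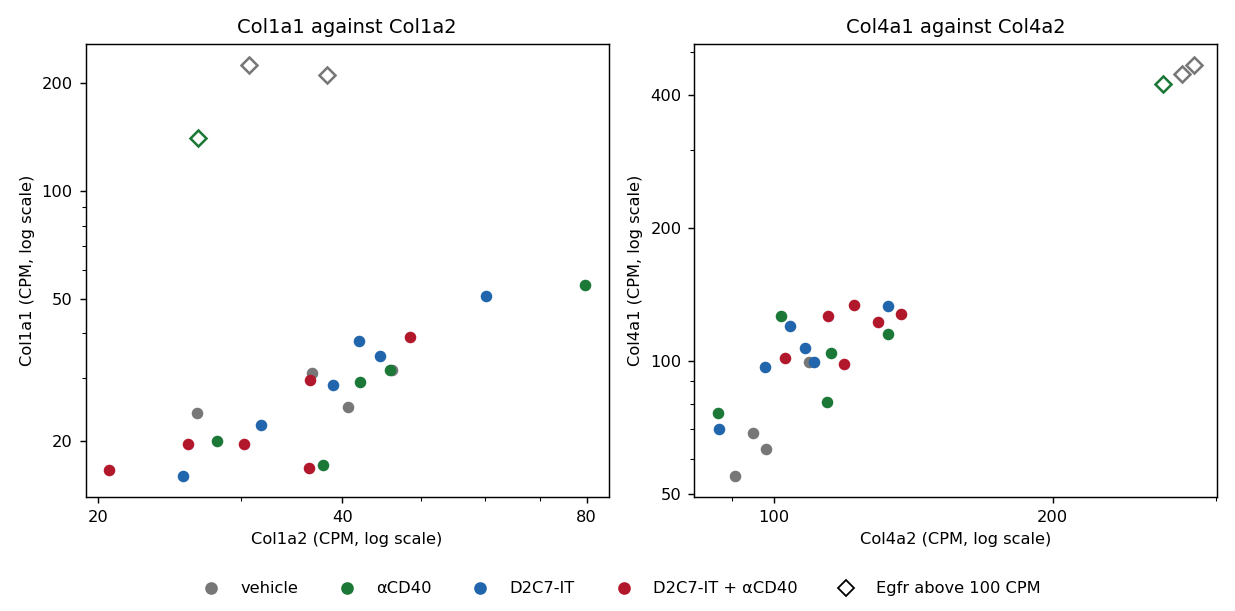
CPM (log axes) of Col1a1 against Col1a2 and of Col4a1 against Col4a2 in each of the 24 tumours, with open diamonds for the 3 of high Egfr. The 21 other tumours lie along a line in both panels (r = 0.86 and 0.75), and the diamonds lie off it in the type I panel.

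Choroid plexus, the vessel-rich epithelium that makes cerebrospinal fluid, was followed through 6 marker genes. Their level was uneven between samples. Summed choroid plexus markers were 338 to 1192 CPM in 8 tumours and 1.28 to 91.4 CPM in 16. The 8 were 1, 1, 1 and 2 of 3 in vehicle, αCD40, D2C7-IT and D2C7-IT + αCD40 tumours at day 0, and 0, 0, 1 and 2 at day 3. Of the 44 members Col8a2, a short-chain collagen of corneal and vascular membranes, lay above in those 8 tumours, at 5.61 to 15.9 CPM against 0.1704 to 4.58 CPM. Col4a3, a type IV chain of kidney and lung, did so too, at 1.02 to 3.26 CPM against 0.142 to 0.786 CPM. Among all genes tested 0.139% lay above all of the 16. This is a description and was not tested. It touches the day 3 values of Col4a3 against αCD40 (log2 fold change 2.34 ± 0.88, adjusted p = 0.41, and 1.95 without the 3 tumours of high Egfr), where 2 of 3 D2C7-IT + αCD40 tumours and 0 of 3 αCD40 tumours had high markers. Day 3 comparisons with vehicle have a like imbalance, with high markers in 0 vehicle, 1 D2C7-IT and 2 D2C7-IT + αCD40 tumours. Col4a3 is among the 6 chains behind each type IV median. So is Col4a4, at 1.63 to 5.81 CPM in the 8 tumours and 0.515 to 1.66 CPM in the 16.

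**Figure D5:**
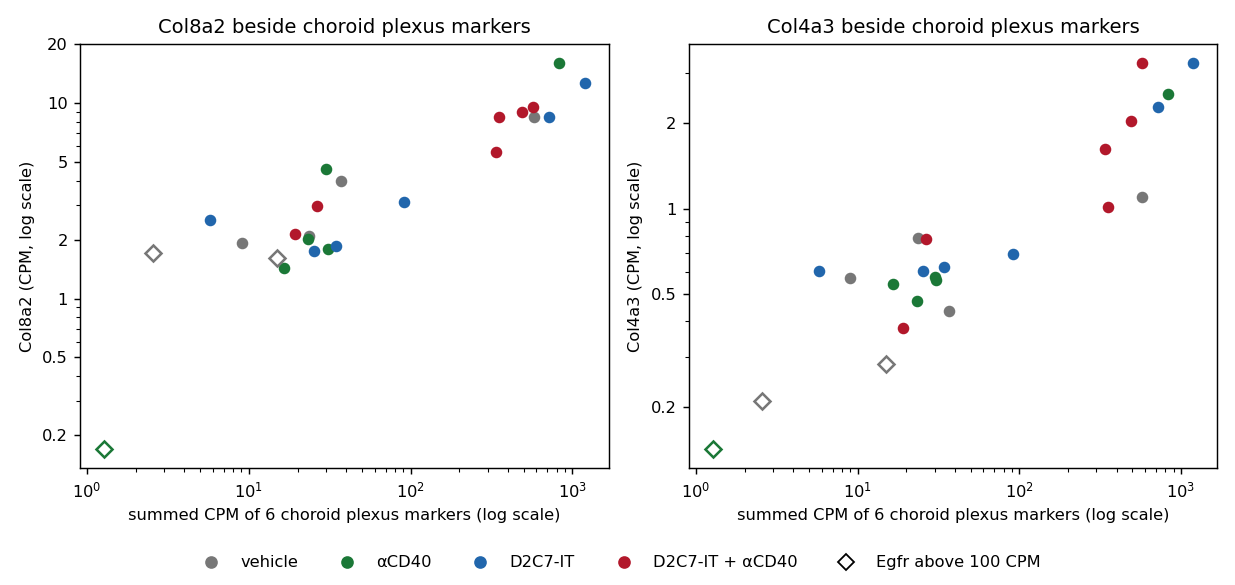
CPM of Col8a2 and Col4a3 against summed CPM of 6 choroid plexus markers in each of the 24 tumours. The 8 tumours with 338 CPM or more of markers hold the 8 highest values of both genes, from 5.61 CPM for Col8a2 and from 1.02 CPM for Col4a3.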

How the data were processed

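RNA from 24 whole frozen tumours was sequenced from poly(A) libraries that do not keep strand. The deposited tables hold raw counts per gene, made by the authors. Per the submitters' processing notes the tools were bcl2fastq 2.17, Trimmomatic 0.36, STAR 2.5.2b, Subread 1.5.2 and featureCounts on GRCm38; no source here states the counting settings. The 6 tables hold 36 columns, of which 12 repeat another with 0 differences, and were joined to 24 tumours. GENCODE M21 named 48970 of 49315 gene IDs.

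Counts were tested as deposited with edgeR 4.0.16 (TMM factors of 0.919 to 1.06, default low-count filter, robust quasi-likelihood, 22280 genes, 16 residual degrees of freedom) in R 4.3.3, with Benjamini-Hochberg adjustment over all genes. SE is the log2 fold change over the root of F. RPKM divides TMM-scaled CPM by union exon length. The script was tested on simulated counts. Alternatives were DESeq2 1.42.0, its size factors, no filter (38804 genes), only the groups compared, a replicate block and each tumour left out; leaving out the 3 tumours of high Egfr was chosen after seeing the data. Replicates differed beyond counting noise, with a chi-square of at least 28.2 per degree of freedom, so none is a second sequencing of the same library. That value cannot tell separate tumours from separate pieces of 1 tumour.

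The members and lists were chosen with earlier results of these data known. Values in every tumour are given for Col1a1, Col1a2, Col3a1, Col4a1 and Col4a2. In each comparison the members called are named or, with none, up to 3 of smallest p at 1 CPM or more; for lists, up to 3 per list. Others named, among them Col4a1 and Pecam1 at day 0 and the ranges in the 3 tumours, were chosen after their values were seen. Depth was 24.7 M to 48.1 M counts per tumour.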

Additional observations from a re-analysis of the deposited data

How the results depend on the processing

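No collagen was called with edgeR in any of the 17 comparisons, and none with DESeq2's size factors, without the filter, or with only the groups compared. DESeq2 called 10 members in D2C7-IT against vehicle at day 3, 11 in D2C7-IT + αCD40 against vehicle at day 3, 14 in vehicle day 3 against day 0, and 1 in D2C7-IT + αCD40 against αCD40 at day 0, against D2C7-IT at day 0 and against αCD40 at day 3. Leaving out 1 tumour gave 0 to 16, 0 to 20 and 0 to 23 calls in the first 3, 0 to 8 in αCD40 against vehicle at day 3 and 0 to 9 in the D2C7-IT interaction, with every call made without vehicle day 3 replicate 1 or αCD40 day 3 replicate 1; the cause was not tested. Correlations moved to 0.40 for Col6a1 and Col6a2 and 0.31 for Col4a1 and Pecam1 after centring, 0.50 for the latter without 2 tumours, and 0.51 for Col1a1 and Dcn after centring. The replicate block called 0 members in each comparison; the numbers do not pair the tumours, since the 84 same-number correlations ran from −0.91 to 0.51 with a mean of −0.03 and 5 of 24 tumours correlated best with their own number. Under the block Creb3l1 had an adjusted p of 0.059. The median log2 fold change of all genes was at most 0.0514 in size in any comparison with TMM factors. It was at most 0.0595 with DESeq2 and 0.0597 with its size factors in edgeR. Without the 3 tumours of high Egfr 63 of the 94 member log2 fold changes at an unadjusted p under 0.05 changed sign. Low counts limit Col4a6 and Col6a6.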
